A study of Mus musculus with 4 samples.

Results

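The ion channel genes examined here are a list of 37 genes set by name: 3 for sodium channel pores and partners, 20 for potassium channels and their partners, 6 for calcium channels, and 8 for other channels and ion transporters. All 37 were among the 22574 genes of a single-nucleus RNA sequencing (snRNA-seq) matrix. The list was set with earlier results of these data known. The matrix held 8585 cardiomyocyte nuclei from 4 libraries of neonatal mouse heart, 1 library for each combination of genotype and surgery. Mice of the group called KO carried loxP-flanked Nrf1 alleles (Nrf1fl/fl) with the aMHC-Cre transgene, whose cardiac myosin promoter drives Cre recombinase in cardiomyocytes. Those called WT were Nrf1fl/fl without Cre, so that both genotypes carried the loxP sites, on a C57BL/6 background. Myocardial infarction (MI) was made at postnatal day 3 by tying the left anterior descending coronary artery, Sham mice had the chest opened without that ligation, and tissue was collected 1 day later, at postnatal day 4. Each library pooled the tissue below the ligation plane of 4 to 6 hearts, so no value below has a replicate, and no difference was tested.

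Ion channels set the electrical cycle of the heart muscle cell: sodium current starts the action potential, calcium current sustains it and triggers contraction, and potassium currents end it and hold the resting potential. The transient outward, delayed rectifier and inward rectifier potassium currents are carried by different pore proteins, each with partner subunits that set its gating and its traffic to the membrane. ATP-sensitive potassium channels join a pore to a sulfonylurea receptor and open when the energy of the cell is low, and the make-up of many of these currents shifts as the heart matures after birth and in disease.

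Nuclei carried the authors' population labels CM1, CM2, CM4 and CM5, and CM1 was the largest population in every library. Unique molecular identifiers (UMIs, counts of captured RNA molecules) were summed over the nuclei of 1 population of 1 library and given as counts per 1000000 UMIs of that sum (CPM). CM1 held 1098 nuclei and 4151418 UMIs in the library labelled WT-Sham, 1415 and 5799715 in that labelled WT-MI, 2619 and 7335268 in that labelled KO-Sham, and 1308 and 5322066 in that labelled KO-MI. The library labelled KO-Sham had the lowest median depth, 2632 UMIs per CM1 nucleus against 3749 to 4043.5 in the others, and the highest median share of mitochondrial UMIs, 8.78% against 5.05% to 6.13%. All 12 cardiomyocyte markers on a fixed list were detected in CM1 of every library, at 38592 to 46145 CPM in sum. Of 8576 barcode sequences, 9 (0.105%) occurred in more than 1 library.

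Nfe2l1, the gene that encodes Nrf1 and the target of the knockout, had 61.4 and 53.3 CPM in CM1 of the Sham libraries labelled WT and KO. The MI libraries labelled WT and KO had 44.1 and 57.7 CPM of it, a log2 ratio for KO over WT of 0.36 (95% interval 0.12 to 0.61). The counts cover the whole gene, introns included, so reads outside the deleted part are counted too and the level does not check the deletion. The order in the MI pair nevertheless runs against the label, and each library is therefore named here by its label.

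A ratio is the log2 ratio of CPM between 2 sums, relative to the median log2 ratio of all genes tested. A gene was tested against the counting error if the 2 sums together held at least 50 of its UMIs. It was called higher or lower when it lay 1.5-fold or more from that median and the exact 95% interval of its ratio excluded no change. The intervals cover counting error only, and neither the spread between nuclei of a pool nor the differences between pools of hearts. In CM1 the subtracted median was -0.067 for MI over Sham in the WT libraries, 0.035 in the KO libraries, -0.117 for KO over WT in the Sham libraries and 0.021 in the MI libraries. Levels of different genes are not compared with each other, since counts depend on gene length and on priming.

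In CM1 after MI, Kcnd2 and Kcnip2 of the transient outward current, Kcnj3 of the acetylcholine-gated current, Kcne1 of the slow delayed rectifier and Abcc9 of the ATP-sensitive channel were lower in both genotypes, while Kcna4, Abcc8 and Piezo1 were higher in both. In the WT libraries 4 of the 32 members tested were called higher, beside 8.77% of all genes, and 10 were called lower, beside 8.68%. In the KO libraries 3 of 32 were called higher, beside 8.33%, and 7 were called lower, beside 10.8%. The median ratio of the members was -0.19 in the WT libraries and -0.11 in the KO libraries, where that of all genes is 0 by construction. Called the same way in both genotypes were 3 higher members, beside 5.09% of all genes, and 5 lower members, beside 4.23%, and none was called in opposite directions. The 2 MI over Sham comparisons share no library.

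The potassium channels held most of the calls and were 18 of the 32 members tested. Of these 18, from 20 listed, 3 were called higher and 8 lower in the WT libraries, beside 8.77% and 8.68% of all genes. In the KO libraries 2 were called higher and 7 lower, beside 8.33% and 10.8%. Of 6 calcium channel genes, 1 was called lower in the WT libraries, beside 8.68%, and none in the KO libraries, beside 10.8%. Of the 7 other members tested, 1 was called higher and 1 lower in the WT libraries, beside 8.77% and 8.68%. In the KO libraries 1 of them was called higher and none lower, beside 8.33% and 10.8%. Fgf13 was the 1 sodium channel member tested, and it was not called.

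The sequence just upstream of the start site is shown for 3 members called in both genotypes, Kcnj3 and Kcnip2, which were lower, and Kcna4, which was higher. Each is the 250 bases before the first annotated base, 5′ to 3′ on the strand of the gene, from the RefSeq annotation of GRCm38.p6: chr2:55435720-55435969 on the plus strand for Kcnj3, chr19:45816064-45816313 on the minus strand for Kcnip2, and chr2:107290339-107290588 on the plus strand for Kcna4. Capitals mark matches, on either strand, to the core of the antioxidant response element that Nrf1 and related factors recognise (TGACNNNGC), to the AP-1 motif (TGANTCA) or to a GATA motif (AGATAA), which do not overlap here.
Kcnj3: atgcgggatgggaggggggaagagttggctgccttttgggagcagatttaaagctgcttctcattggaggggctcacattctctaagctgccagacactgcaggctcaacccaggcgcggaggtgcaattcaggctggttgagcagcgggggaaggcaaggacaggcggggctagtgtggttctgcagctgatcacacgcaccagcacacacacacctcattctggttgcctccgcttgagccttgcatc
Kcnip2: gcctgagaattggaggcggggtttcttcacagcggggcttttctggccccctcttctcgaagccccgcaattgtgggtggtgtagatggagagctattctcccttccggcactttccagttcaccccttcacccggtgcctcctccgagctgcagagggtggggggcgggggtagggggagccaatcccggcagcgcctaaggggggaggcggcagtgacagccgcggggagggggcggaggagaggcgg
Kcna4: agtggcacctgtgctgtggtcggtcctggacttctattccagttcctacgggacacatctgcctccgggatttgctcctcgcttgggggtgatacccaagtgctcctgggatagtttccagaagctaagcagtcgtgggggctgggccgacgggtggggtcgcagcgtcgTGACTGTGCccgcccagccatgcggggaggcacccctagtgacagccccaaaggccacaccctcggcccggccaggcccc
The window of Kcna4 held 1 match to the antioxidant response element core and the other 2 windows held no match to any of the 3 motifs. Of the 37 members, 27 had a window in the table, 32 windows in all. The antioxidant response element core was in 2 of these 32, against 10.2% of all 32851 windows of this length, AP-1 in 1 against 6.7%, and GATA in 0 against 10.0%. The matches describe letters in these windows and do not show binding.

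The transient outward current genes split. Kcnd2, the pore subunit of the fast transient outward current, stood at 509.9 and 250.4 CPM in the libraries labelled WT-Sham and WT-MI and at 445 and 244 CPM in those labelled KO-Sham and KO-MI. Both MI libraries lay below both Sham libraries, with ratios of -0.96 (-1.06 to -0.86) and -0.90 (-1.0 to -0.81), that is 1.94-fold and 1.87-fold lower. Kcnip2, whose protein binds this pore and carries it to the membrane, was at 102 and 46.4 CPM in the WT libraries, Sham first, and at 69.9 and 36.8 CPM in the KO libraries. Its ratios of -1.07 (-1.29 to -0.84) and -0.96 (-1.21 to -0.72) were close to those of the pore gene. Kcna4, the pore of the slow transient outward current, was higher after MI, at 20 and 31 CPM in the WT libraries and 17.6 and 33.4 CPM in the KO libraries (ratios 0.70, 0.32 to 1.09, and 0.89, 0.56 to 1.23). Kcnd3, the other fast pore, rested on few molecules, 4.34 and 9.83 CPM in the WT libraries and 5.32 and 8.27 CPM in the KO libraries. It was called higher in the WT libraries, at 1.25 (0.46 to 2.10), and not in the KO libraries, at 0.60 (-0.05 to 1.26), and it overlaps the antisense gene Kcnd3os, whose reads cannot be told apart without strand.

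**Figure D1:**
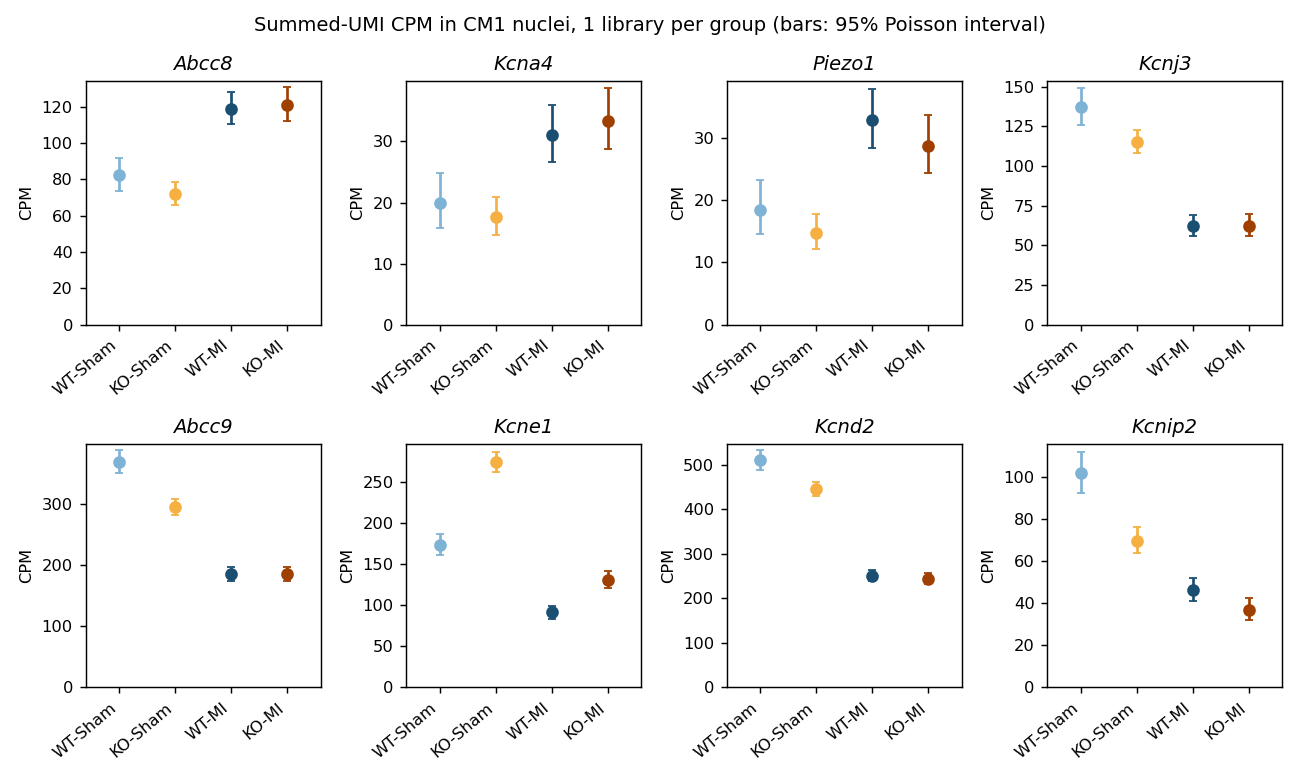
CPM of summed UMIs in CM1 nuclei (vertical axes, each from 0) in the 4 libraries (horizontal axes), for the 8 members called the same way in both MI over Sham comparisons. Points are single libraries and bars are exact 95% Poisson intervals; Abcc8, Kcna4 and Piezo1 lie higher in both MI libraries and the other 5 lower, with Kcne1 highest in the library labelled KO-Sham.

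Among the inward rectifiers, the acetylcholine-gated genes were lower after MI. Kcnj3, a pore subunit of the channel that slows the heart under vagal drive, was at 137 and 115 CPM in the libraries labelled WT-Sham and KO-Sham and at 62.4 CPM in each MI library. The ratios were -1.07 (-1.26 to -0.88) and -0.92 (-1.11 to -0.74), or 2.1-fold and 1.89-fold lower. Its partner Kcnj5 was at 56.4 and 32.6 CPM in the WT libraries, a called ratio of -0.72 (-1.01 to -0.44), and at 46.1 and 35.1 CPM in the KO libraries, where -0.43 (-0.69 to -0.16) was short of the fold required. Kcnj2, the main pore of the resting inward rectifier current, was at 28.4 and 18.8 CPM in the WT libraries and at 23.4 and 15.8 CPM in the KO libraries. Its ratios were much alike, -0.53 (-0.92 to -0.14) and -0.61 (-1.0 to -0.22), but only the second passed 1.5-fold, and its call was lost under 5 of 12 alternative settings. Kcnj12, which joins it in the same current, was at 22.0 to 28.4 CPM across the libraries and was not called.

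The ATP-sensitive potassium channel genes moved in different directions. Abcc8, 1 of the 2 sulfonylurea receptors, was at 82.4 and 119 CPM in the libraries labelled WT-Sham and WT-MI and at 72.1 and 121 CPM in those labelled KO-Sham and KO-MI. Both MI levels lay above both Sham levels, with ratios of 0.60 (0.41 to 0.79) and 0.71 (0.54 to 0.88). The call in the WT libraries lay at the threshold and was lost under 6 of 12 alternative settings. Abcc9, the receptor typical of ventricular muscle and vessels, was lower instead, at 368 and 185 CPM in the WT libraries and 295 and 185 CPM in the KO libraries (-0.93, -1.04 to -0.81, and -0.71, -0.82 to -0.60). Kcnj11, the pore of the sarcolemmal channel in ventricular muscle, was at 18.8 and 11.4 CPM in the WT libraries, called at -0.66 (-1.15 to -0.16). In the KO libraries it was at 14.7 and 14.5 CPM and was not called. Kcnj8, a pore typical of vessel walls, was a small count throughout, 21, 34, 56 and 14 UMIs in the libraries labelled WT-Sham, WT-MI, KO-Sham and KO-MI. Its level was 5.06 and 5.86 CPM in the WT libraries and 7.63 and 2.63 CPM in the KO libraries, where it was called lower at -1.57 (-2.53 to -0.71).

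Since Kcnj8 and Abcc9 are also genes of pericytes and smooth muscle, the markers of those cells were read in the same sums. All 10 were detected in CM1 of each library, at 1502 to 1837 CPM in sum, of which 1434 to 1768 CPM came from Myocd, a gene that cardiomyocytes also express, while Rgs5, Pdgfrb and Vtn gave 67 to 152, 22 to 48 and 3 to 11 UMIs. The summed list had a ratio of -0.09 (-0.13 to -0.04) for MI over Sham in the WT libraries and 0.04 (0.00 to 0.09) in the KO libraries. In nuclei with no more than the median share of UMIs from other cell types, Abcc9 stayed at -0.94 and -0.79, both called. Kcnj8 was there at -1.53 in the KO libraries and lost its call on fewer UMIs. That share counts Myocd and red blood cell genes among others, so it does not single out pericytes and smooth muscle. The cut kept 577 and 261 CM1 nuclei of the libraries labelled WT-Sham and WT-MI, and 1707 and 675 of those labelled KO-Sham and KO-MI. The part of pericytes and smooth muscle in either gene was not tested.

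Of the delayed rectifier genes, Kcne1 was called in both genotypes. Kcne1 encodes the small subunit that slows the channel formed by Kcnq1, and it was at 173 and 91.0 CPM in the libraries labelled WT-Sham and WT-MI and at 274 and 131 CPM in those labelled KO-Sham and KO-MI. The MI levels lay below both Sham levels (-0.86, -1.03 to -0.70, and -1.10, -1.22 to -0.97). Kcnq1, the pore itself, was at 576 to 707 CPM and its ratios of 0.05 and 0.15 were not called, so the subunit and its pore had unlike ratios. Kcnq1 overlaps 12 annotated genes, Kcnq1ot1 among them. Kcnh2, the pore of the rapid delayed rectifier, was at 42.9 and 30.3 CPM in the WT libraries and at 32.7 and 31.2 CPM in the KO libraries, with no call in either pair. Kcnh7, a related pore better known from neurons, reached 13.7 CPM in the WT-Sham library and lay between 4.77 and 6.20 CPM in the other 3. It was called lower after MI in the WT libraries, at -1.16 (-1.82 to -0.52). A single nucleus held 21 of its 57 UMIs in the library labelled WT-Sham, and without the top nucleus of each library the ratio was -0.95, still called. In nuclei with a low share of other cell types it was -0.55 and not called.

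The calcium channel genes showed fewer calls. Cacna1d, an L-type pore prominent in atrial and pacemaker cells, was at 110.1 and 50.5 CPM in the libraries labelled WT-Sham and WT-MI, a called ratio of -1.06 (-1.27 to -0.84). In the KO libraries it was at 103 and 84.6 CPM, with a ratio of -0.32 (-0.50 to -0.15) that was not called. The gene overlaps 7 annotated genes. Cacna2d1, the subunit that brings L-type channels to the membrane, was higher after MI in both pairs without reaching 1.5-fold, at 528 and 685 CPM and at 442 and 640.4 CPM, with ratios of 0.44 (0.37 to 0.52) and 0.50 (0.43 to 0.57). The T-type pores, expressed in the fetal heart, gave 35.7 to 52.4 CPM for Cacna1g and 10.6 to 14.1 CPM for Cacna1h and no call. The inositol trisphosphate receptors Itpr1 and Itpr2, which release calcium from internal stores, were at 175 to 216 and at 88.9 to 145 CPM, and neither was called.

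Among the remaining members, Piezo1, a mechanically opened cation channel, was at 18.5 and 32.9 CPM in the libraries labelled WT-Sham and WT-MI and at 14.7 and 28.7 CPM in those labelled KO-Sham and KO-MI. It was called higher in both pairs, at 0.90 (0.51 to 1.30) and 0.93 (0.57 to 1.30). Piezo1 is also strongly used by endothelial cells, and all 10 endothelial markers were detected, with summed levels of 479.8 and 514 CPM in the WT libraries and 857 and 575 CPM in the KO libraries. The endothelial list was thus higher after MI in the WT libraries, by 0.17 (0.08 to 0.25), and lower in the KO libraries, by -0.61 (-0.67 to -0.55). Myeloid markers were higher after MI in both, by 2.36 and 1.55. In nuclei with a low share of other cell types Piezo1 was at 1.01 and 0.72, called in both. That cut kept unequal parts of the libraries, 261 of 1415 CM1 nuclei in that labelled WT-MI and 577 of 1098 in that labelled WT-Sham. In those labelled KO-MI and KO-Sham it kept 675 of 1308 and 1707 of 2619. The part of endothelial and myeloid cells in the Piezo1 ratios was not tested. Piezo1 overlaps Ctu2 and 2 other genes.

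Trpm4, a cation channel opened by calcium, was at 42.2 and 24.3 CPM in the WT libraries, called at -0.73 (-1.06 to -0.40). In nuclei with a low share of other cell types it was at -0.61, still beyond 1.5-fold but on fewer UMIs, and was not called. In the KO libraries it was at 27.9 and 19.4 CPM, where -0.57 (-0.92 to -0.22) was just short of 1.5-fold. Atp1b1, the beta subunit of the sodium pump, was higher after MI without a call, at 111 and 158 CPM and at 137 and 176 CPM (0.57, 0.41 to 0.74, and 0.32, 0.19 to 0.45). Fxyd1, which restrains that pump, was at 149 and 122 CPM in the WT libraries and 215 and 149 CPM in the KO libraries, again without a call. Members with no call in CM1 were also Fgf13, a modulator of sodium channels (2451 to 3219 CPM), the background potassium channel gene Kcnk3 (50.3 to 63.8 CPM), the calcium-activated potassium channel gene Kcnn2 (590.2 to 702 CPM), Trpm7 (341 to 442 CPM), the pacemaker channel gene Hcn2 (4.14 to 6.74 CPM) and the chloride and proton exchanger gene Clcn3 (97.9 to 117 CPM). Scn4b had 0 UMIs in CM1 of every library, which allows up to 3 UMIs per library. Scn4a, Kcna5, Kcnn3 and Hcn4 had fewer than 50 UMIs over each pair and were not tested.

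**Figure D2:**
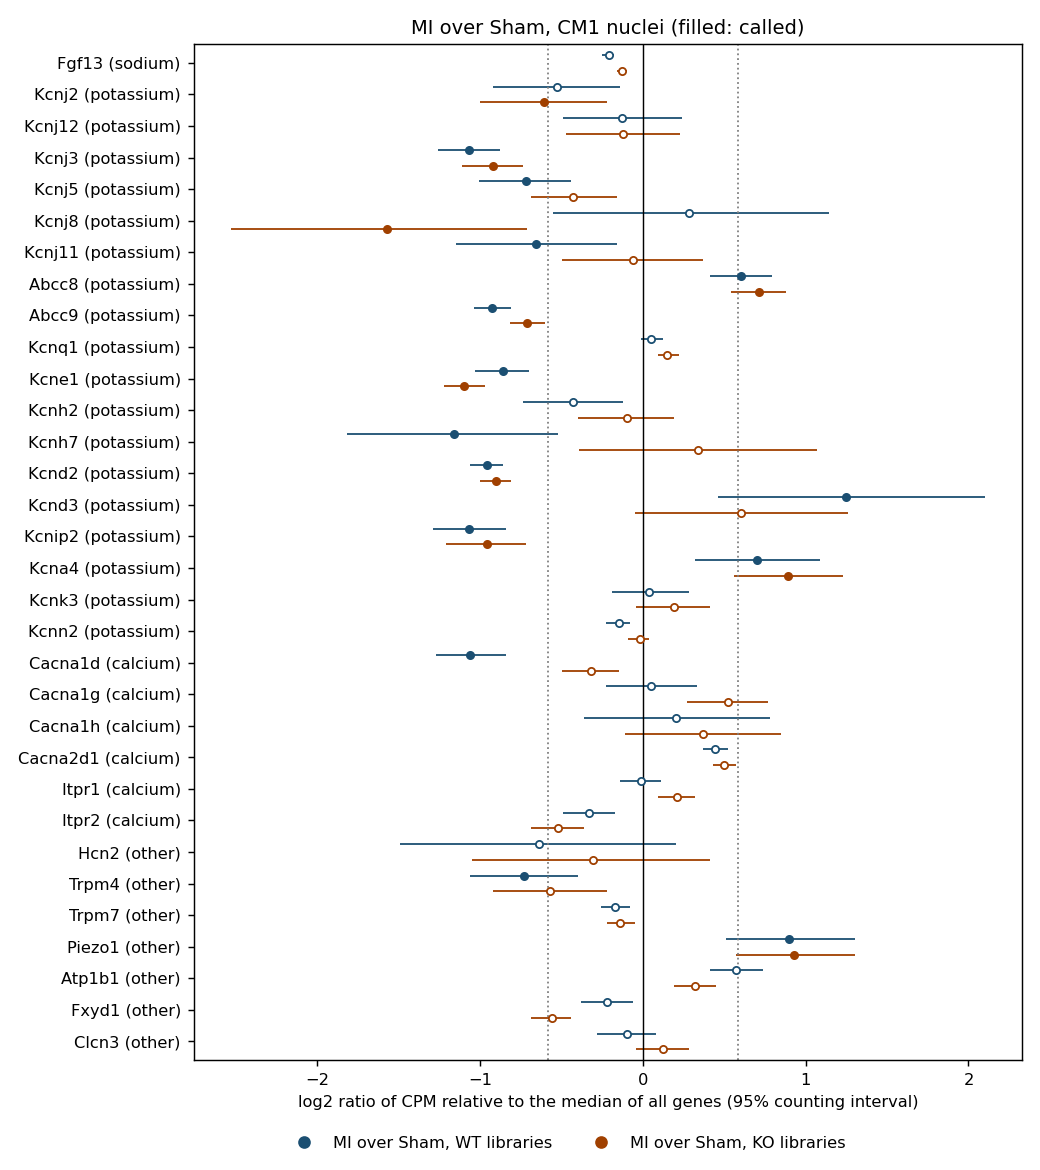
Log2 ratio of CPM, MI over Sham, relative to the median of all genes (horizontal axis) for the 32 members tested in CM1 (vertical axis), WT libraries in blue and KO libraries in brown. Bars are exact 95% counting intervals, filled points are called, dotted lines mark 1.5-fold; 5 potassium channel genes are called lower and Abcc8, Kcna4 and Piezo1 higher in both.

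Fixed markers of atrial cells were read beside Cacna1d, Kcnj3 and Kcnj5, which atrial cells use strongly. Summed over 8 genes they were at 185 and 307 CPM in the Sham libraries labelled WT and KO and at 2001 and 2441 CPM in the MI libraries, but 148, 256, 1961 and 2374 CPM of these sums were Nppa, which injured ventricular muscle also expresses, and Bmp10 and Sln had at most 7 UMIs in any library. The conduction system list, 10 genes, was at 598 to 778 CPM, almost all of it Rgs6, with Isl1 at 0 and Shox2 at 1 to 4 UMIs. Fibroblast markers were at 916 to 1079 CPM, those of red blood cells at 1891 to 3829 CPM, and those of neurons and glia at 15.4 to 22.9 CPM with Sox10 at 0. The part of these cells in the members' values was not tested.

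Outside the members, 89 further channel and transporter genes were read from a fixed list. In the WT libraries 7 of 38 tested were called higher, beside 8.77% of all genes, and 7 lower, beside 8.68%. In the KO libraries 8 of 42 were called higher, beside 8.33%, and 2 lower, beside 10.8%. Of 38 tested in both pairs, 6 were called higher in both, beside 5.09%, and 2 lower in both, beside 4.23%. The higher included Kcnq5, a potassium channel gene (348 and 688 CPM in the WT libraries, 362 and 606 CPM in the KO libraries), Clic5, of the chloride intracellular channel family (57.6 and 136 CPM, then 49.6 and 111 CPM), and Fxyd5, of the same family as Fxyd1 (12.3 and 31.9 CPM, then 12.4 and 24.8 CPM). Cacng6, a calcium channel gamma subunit, was lower, at 16.4 and 1.72 CPM in the WT libraries and 11 and 3.57 CPM in the KO libraries. Ano4 was also among the higher genes, and the other lower gene was Fgf14, a relative of Fgf13, both named after their values were seen.

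Fewer members were called between genotypes. In the Sham libraries 2 of 32 members tested were called higher in KO over WT, beside 8.39% of all genes, and 1 was called lower, beside 1.53%. In the MI libraries 1 of 31 was called higher, beside 1.37%, and 0 lower, beside 1.45%. The median ratio of the members was -0.15 in the Sham libraries and -0.02 in the MI libraries.

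Kcne1 was called higher in the library labelled KO-Sham than in that labelled WT-Sham, at 274 against 173 CPM, with a ratio of 0.78 (0.65 to 0.90). In the MI libraries the same gene had a ratio of 0.50 (0.34 to 0.67), short of 1.5-fold. Fxyd1 was also called higher in the Sham libraries, at 215 against 149 CPM and 0.64 (0.51 to 0.78), with 0.27 (0.12 to 0.42) in the MI libraries. Both genes are short, 13.5 and 5.5 kb. Genes under 10 kb as a whole had a median ratio of 0.32 in this comparison and genes of 100 kb or more a median of -0.12. Set against genes of similar length, an alternative chosen after seeing the data, Kcne1 was at 0.67 and still called, and Fxyd1 was at 0.29 and no longer called. Endothelial markers were also higher in the library labelled KO-Sham, by 0.95 (0.88 to 1.03), most of them UMIs of Fabp4, and the part of these cells in the ratios was not tested.

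Kcnh7 was called lower in the library labelled KO-Sham, at -1.41 (-2.06 to -0.78), and at -0.93 without the top nucleus of each library. The call was lost in nuclei with a low share of other cell types (-1.16) and after thinning each nucleus to 1000 UMIs (-1.52). Both of these ratios stayed beyond 1.5-fold and rested on fewer UMIs. In the MI libraries Cacna1d was called higher in KO over WT, at 84.6 against 50.5 CPM and 0.72 (0.51 to 0.94), whereas its ratio in the Sham libraries was 0.03 (-0.14 to 0.20). In nuclei with a low share of other cell types this ratio was 0.45 and not called. The MI over Sham ratio of Cacna1d accordingly differed between genotypes by 0.73 (0.46 to 1.01), KO minus WT, where the interval combines the counting intervals of both ratios. The same difference was 1.5 (0.53 to 2.48) for Kcnh7, -1.85 (-3.14 to -0.66) for Kcnj8 and 0.47 (0.10 to 0.84) for Cacna1g. The interval also excluded no difference for Abcc9 (0.22), Itpr1 (0.22), Kcnn2 (0.13), Fgf13 (0.08), Kcne1 (-0.24), Atp1b1 (-0.25) and Fxyd1 (-0.34). For Kcnq1 (0.10) it began at 0.00. How many of all genes had such an interval was not computed, and no member was called in opposite directions. With 1 pool of hearts per group, genotype and pool cannot be told apart.

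**Figure D3:**
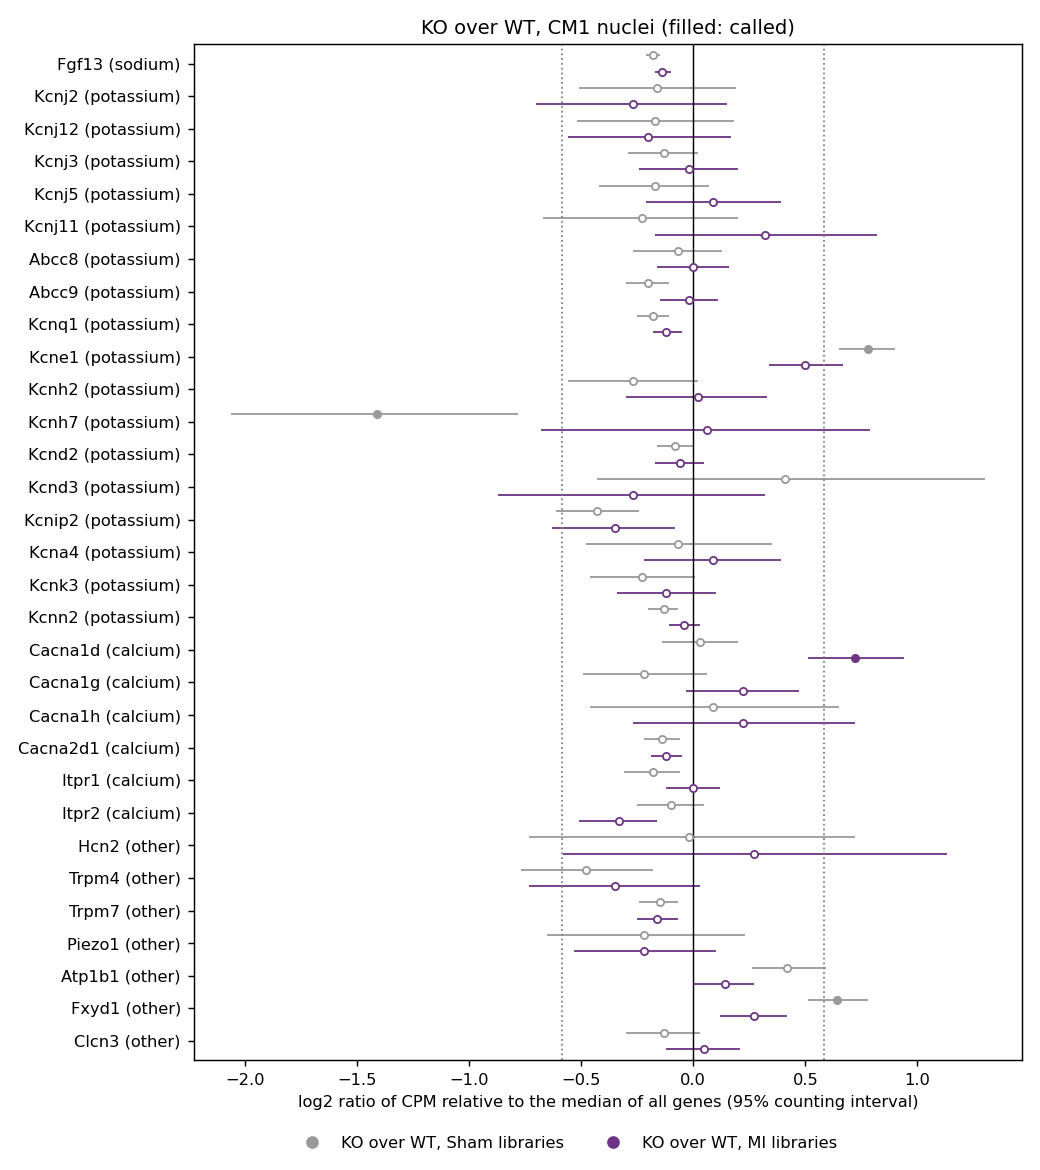
Log2 ratio of CPM, KO over WT, relative to the median of all genes (horizontal axis) for the 31 members tested in both comparisons in CM1 (vertical axis), Sham libraries in grey and MI libraries in purple. Bars are exact 95% counting intervals, filled points are called, dotted lines mark 1.5-fold; Kcne1, Fxyd1 and Kcnh7 are called in the Sham libraries and Cacna1d in the MI libraries.

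Many members were low in CM5 of the MI libraries, and several were low in CM4 too, as given below. CM5 held 89 and 234 nuclei in the libraries labelled WT-Sham and KO-Sham and 339 and 355 in those labelled WT-MI and KO-MI. Populations were made by the authors from the expression values of these same nuclei, so CM5 against CM1 is a description and no test. In the library labelled WT-MI, 19 of 29 members tested were called lower in CM5 than in CM1, beside 12.7% of all genes, and 3 were called higher, beside 11.9%. In that labelled KO-MI, 20 of 29 were called lower, beside 13.9%, and 1 higher, beside 10.9%. In the library labelled WT-Sham 4 of 28 were called lower, beside 3.28%, and 0 higher, beside 3.73%, and in that labelled KO-Sham 5 of 29 lower, beside 2.81%, and 0 higher, beside 3.19%. The cardiomyocyte marker list was lower in the same sums, at 28480.2 and 29269 CPM in CM5 of the libraries labelled WT-MI and KO-MI against 38592 and 39175 CPM in CM1, and at 43417 and 46621 CPM in CM5 of those labelled WT-Sham and KO-Sham. The atrial list, mostly Nppa, was higher, at 3575 and 5521 CPM in CM5 against 2001 and 2441 CPM in CM1 of the MI libraries, and the part of either in the members' values was not tested. The median ratio over the members was -1.04 and -1.12 in the libraries labelled WT-MI and KO-MI and -0.27 and -0.32 in those labelled WT-Sham and KO-Sham.

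The potassium channel genes made up 12 of the lower calls in each MI library, of 16 tested, beside 12.7% and 13.9% of all genes. They were 16 of the 29 members tested. Of 6 calcium channel genes, 4 were called lower in the library labelled WT-MI and 5 in that labelled KO-MI, beside the same shares. Kcnj3 came to a few molecules, 3 UMIs (2.03 CPM) in CM5 of the library labelled WT-MI and 5 UMIs (3.56 CPM) in that labelled KO-MI, against 62.4 CPM in CM1 of both (-4.91, -7.19 to -3.35, and -4.16, -5.79 to -2.92). Kcnip2 behaved alike, with 3 and 4 UMIs (2.03 and 2.85 CPM) in CM5 against 46.4 and 36.8 CPM in CM1 (-4.48, -6.76 to -2.92, and -3.72, -5.61 to -2.34). In the Sham libraries CM5 held 70.7 and 53.5 CPM of Kcnj3, WT first, against 137 and 115 CPM in CM1. It was called lower in both (-0.93 and -1.09). Kcnip2 was at 73.8 and 50.4 CPM in CM5 against 102 and 69.9 CPM in CM1 and was not called (-0.44 and -0.45). Kcnd2 (-0.61 and -0.83) and Cacna1d (-1.81 and -0.89) were also called lower in CM5 of both Sham libraries.

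Kcnn2, which was not called in CM1, stood at 123 and 139 CPM in CM5 of the libraries labelled WT-MI and KO-MI against 603 and 595 CPM in CM1 (-2.26, -2.49 to -2.05, and -2.13, -2.35 to -1.92). The resting inward rectifier genes were low in CM5 too: Kcnj2 was at 6.09 and 2.14 CPM and Kcnj12 at 6.77 and 2.85 CPM, with ratios of -1.59 and -2.92 for Kcnj2 and -1.84 and -2.98 for Kcnj12. Kcnh2 was at 5.41 and 6.41 CPM (-2.45 and -2.31). Abcc8, which was higher after MI in CM1, was lower in CM5 of both MI libraries, at 24.4 and 23.5 CPM (-2.25 and -2.39), and Abcc9 stood at 42.0 and 44.2 CPM (-2.10 in both). Also called lower in both were Kcnq1 (-0.92 and -0.83), Kcnd2 (-1.94 and -1.12), Kcnj5 (-0.85 and -1.13) and Kcnk3 (-0.72 and -0.67). Kcne1 and Kcna4 were not called, Kcne1 at 77.8 and 114 CPM and Kcna4 at 32.5 and 27.8 CPM in CM5.

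Of the other groups, Fgf13 was at 952 and 960.1 CPM in CM5 of the libraries labelled WT-MI and KO-MI (-1.44 and -1.38 against CM1). The calcium pores Cacna1d (-2.86 and -2.40), Cacna1g (-2.10 and -1.77) and Cacna1h (-1.52 and -2.75), the receptor gene Itpr1 (-0.72 and -0.93), Trpm4 (-1.96 and -2.21) and Trpm7 (-0.63 and -0.73) were called lower in both MI libraries. Piezo1 went the other way, at 103 CPM in CM5 of each MI library against 32.9 and 28.7 CPM in CM1, or 3.2-fold and 3.49-fold higher (1.68, 1.36 to 1.99, and 1.80, 1.47 to 2.14). Cacna2d1 was at 1124 and 976 CPM in CM5 (0.75 and 0.58) and Clcn3 at 162 and 137 CPM (0.68 and 0.31), each called in the library labelled WT-MI. In the same sums the endothelial markers were at 474 and 605 CPM in CM5 against 514 and 575 CPM in CM1, and the myeloid markers at 473 and 260 CPM against 516 and 253 CPM. The part of these cells in the level of Piezo1 was not tested.

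**Figure D4:**
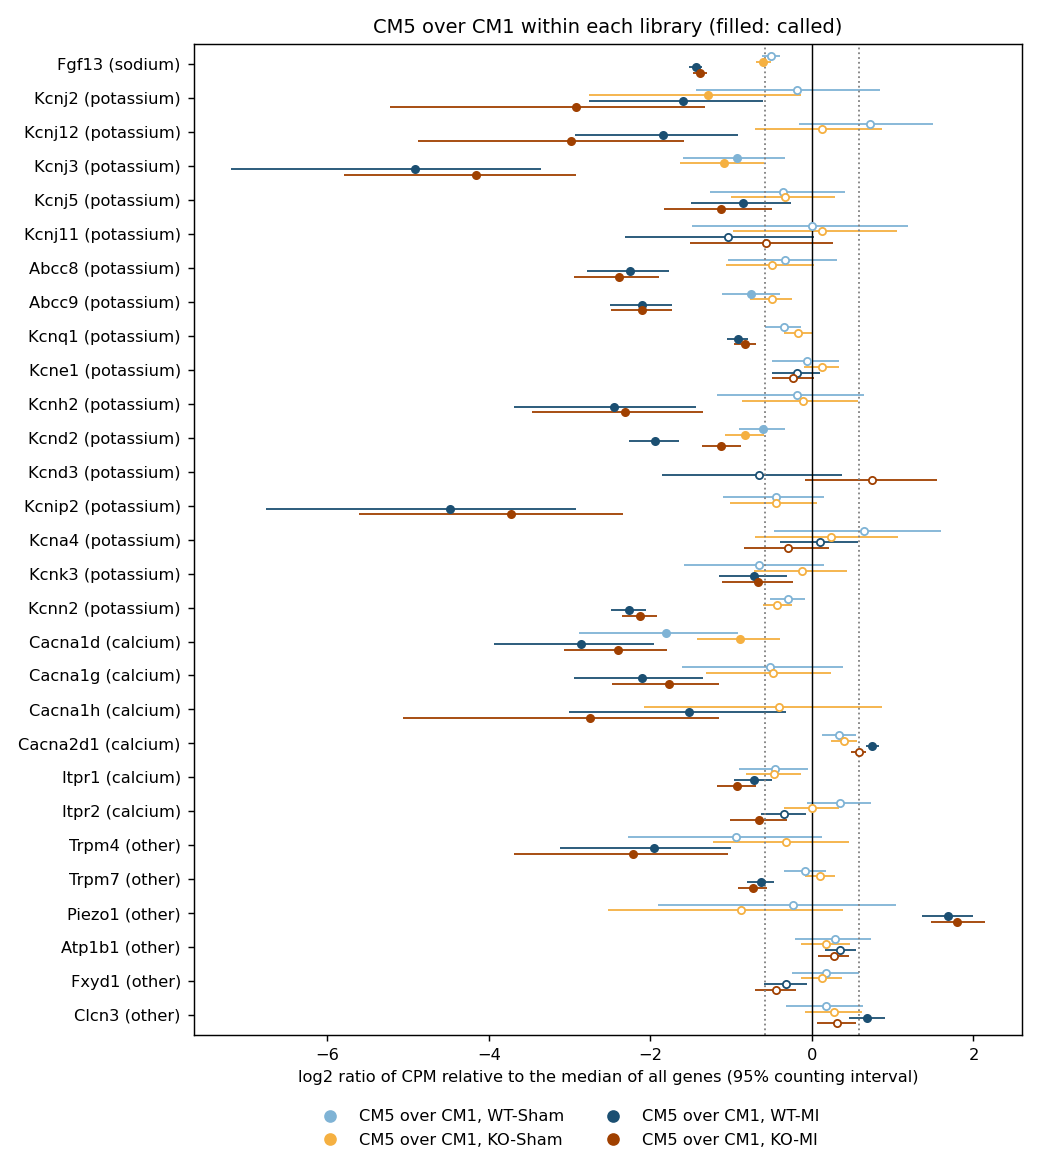
Log2 ratio of CPM, CM5 over CM1 within each library, relative to the median of all genes (horizontal axis), for the 29 members tested in both MI libraries (vertical axis), with 1 colour per library. Bars are exact 95% counting intervals, filled points are called, dotted lines mark 1.5-fold; most potassium and calcium channel genes lie far lower in the MI libraries than in the Sham libraries, and Piezo1 lies higher.

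**Figure D5:**
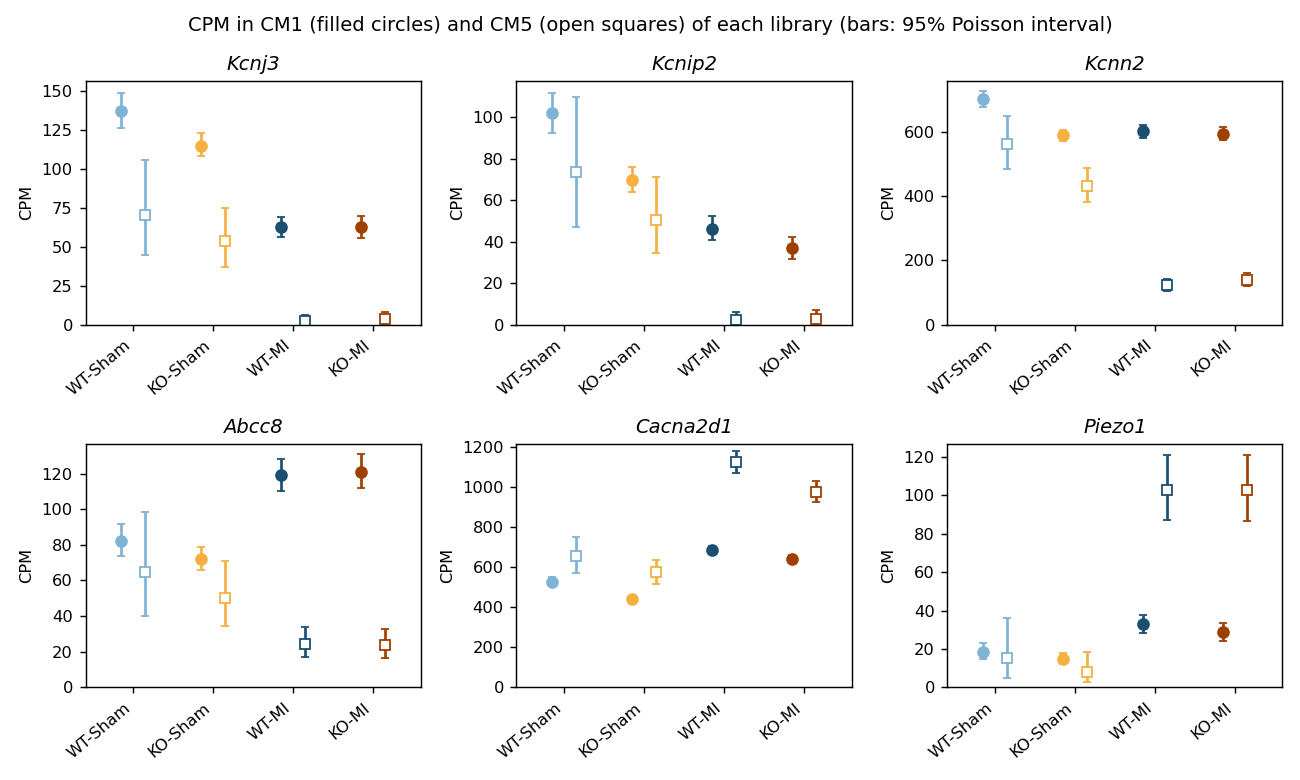
CPM (vertical axes, from 0) of 6 members in CM1 (filled circles) and CM5 (open squares) of each library (horizontal axes), with exact 95% Poisson intervals. Kcnj3 and Kcnip2 are near 0 in CM5 of both MI libraries, Kcnn2 and Abcc8 are well below CM1 there, and Cacna2d1 and Piezo1 are above it.

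Within CM5, MI over Sham gave 10 lower and 2 higher of 17 members tested in the WT libraries, beside 16.3% and 14.3% of all genes, and 10 lower and 2 higher of 18 in the KO libraries, beside 17.8% and 15.7%. The higher members were Cacna2d1 (0.77 and 0.66) and Piezo1 (2.74, 1.48 to 4.38, and 3.6, 2.34 to 5.24, from 5 UMIs in each Sham library). Kcnn2 (-2.21 and -1.74), Abcc9 (-2.36 and -2.32) and Kcnd2 (-2.38 and -1.21) had the lowest ratios in the WT libraries and were called lower in both. Kcnj3 and Kcnip2 had fewer than 50 UMIs over each pair and were not tested there. For KO over WT, Kcne1 was called higher in the Sham libraries (0.93, 0.48 to 1.40), 1 of 16 tested beside 7.44%, and 0 lower beside 3.47%. In the MI libraries Kcnd2 was called higher (0.80, 0.42 to 1.18), 1 of 17 beside 2.36%, and Itpr2 lower (-0.60, -1.03 to -0.19), 1 beside 1.76%. The Kcnd2 UMIs lay in 52 CM5 nuclei of the library labelled KO-MI and 46 of that labelled WT-MI. The top 10 nuclei held 52.8% and 45.7% of them, so the call rested on few nuclei.

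CM4, the population that the study follows for cell division, was shallow, with 343672 to 730490 UMIs per library. Against CM1 of the same library, 11 of 28 members were called lower in CM4 of the library labelled WT-Sham, beside 1586 of 8542 genes. In that labelled WT-MI 13 of 29 were, beside 1269 of 9293. The libraries labelled KO-Sham and KO-MI had 7 of 29 beside 727 of 10039, and 9 of 28 beside 1408 of 9076. Called higher, in that order, were 3, 4, 3 and 3 members, beside 2210, 1952, 1565 and 2050 genes. As for CM5, this is a description and no test. For MI over Sham, 3 of 13 members tested were called lower and 1 higher in the WT libraries, beside 17.3% and 16.0% of all genes, and 8 of 18 lower and 1 higher in the KO libraries, beside 11.7% and 12.6%. Abcc9 (-1.11 and -0.93) and Kcne1 (-1.33 and -1.01) were called lower in both pairs, as in CM1. For KO over WT in the Sham libraries, 6 of 18 members were called higher, beside 10.5%, and 0 lower, beside 5.47%. These 6 were Fgf13, Kcnq1, Kcnd2, Kcnip2, Kcnn2 and Trpm7, led by Kcnip2 at 76.7 against 30.3 CPM (1.30, 0.39 to 2.34) and Kcnq1 at 381 against 187 CPM (0.99, 0.62 to 1.38). In CM1 none of these 6 was called higher in that comparison. The 2 CM4 sums also differed in the median mitochondrial share, 14.6% in the library labelled WT-Sham and 11.6% in that labelled KO-Sham, in red blood cell markers, 12805 and 7833 CPM, and in the pericyte and smooth muscle list, 604 and 914 CPM. Fgf13, Kcnq1, Kcnd2 and Kcnn2 are long genes, of 320.7 to 514.3 kb, and the part of these differences was not tested. In the MI libraries Fxyd1 was called higher in CM4, 1 of 12 beside 8.92%, and Fgf13 and Kcnn2 lower, 2 of 12 beside 8.8%. CM2 held 27 to 124 nuclei per library, and its members' ratios are not described.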

How the data were processed

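Single-nucleus RNA was sequenced in 4 libraries, 1 per group, each a pool of hearts; the groups were read from the sample titles. The authors deposited UMI counts per gene and nucleus, not normalized, and per nucleus its library, its population label (CM1 holds CM1 and CM3), the percent of UMIs from the mitochondrial genome, and a label transferred from an earlier reference. The methods of the study name Cell Ranger (its version is not given in the sources used here), a pre-mRNA reference of mm10/GRCm38, which counts introns too, and Seurat 3. Nuclei outside 200 to 2500 genes and doublets called by Scrublet had been removed before deposit, as had all clusters other than cardiomyocytes, so doublets were not called here. The labels and the methods name different versions of the 10x 3′ kit, and the use of strand is not stated, so the 20 members that overlap another gene in the annotation are uncertain. Of the deposited columns per nucleus, 11 were not used.

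The deposited counts were summed per library and population and given as CPM with exact Poisson intervals (Python 3.11.15, scipy 1.17.1, numpy 2.4.6). Ratios have exact conditional binomial intervals at 95%, and a sum of 0 was set to 3 UMIs. No p-value was computed, since each group had 1 library. Nuclei whose sum matched the deposited total numbered 8585. The steps were tested on simulated data. Alternatives were no centring, TMM factors (edgeR 4.0.16), other UMI minimums, thinning to 1000 UMIs, equal weight per nucleus, leaving out top nuclei and other choices of nuclei. Full values are given for members called in any CM1 comparison or in CM5 over CM1 in both MI libraries, and for at most 6 other channel genes called the same way in both MI over Sham comparisons, those with the largest ratios; some of these genes are not reported here. The members, gene lists and comparisons were chosen with earlier results of these data known. Positions are from GENCODE M21, which held 98.0% of the symbols, and promoters from RefSeq; protein sequences were not used here.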

Additional observations from a re-analysis of the deposited data

How the results depend on the processing

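No paired analysis was possible because each group had 1 library, and for the same reason no library could be left out. The 28 member ratios called in CM1 were recomputed under 12 alternatives, which gave 336 values: 305 were still called, 31 were not, and 0 changed sign. The settings with a minimum of 20 UMIs and with no minimum can remove such a call only through the centring median. A called ratio already had at least 50 UMIs. The 99 ratios not called gave 1188 values, of which 43 became called. Kcnj3, Kcnd2, Kcnip2, Abcc9, Kcne1 and Piezo1 kept their MI over Sham calls in both genotypes under all 12 alternatives, with ranges of -1.31 to -0.80, -1.08 to -0.81, -1.33 to -0.91, -1.09 to -0.67, -1.29 to -0.81 and 0.72 to 1.35. Abcc8 was lost in the WT libraries under 6 alternatives (lowest 0.33, with all nuclei in place of CM1) and in the KO libraries with all nuclei (0.46), and Kcna4 in the WT libraries when thinned to 1000 UMIs (0.41). Kcnj2 in the KO libraries was lost under 5 alternatives, Fxyd1 in KO over WT under 4, Kcnj8 and Kcnj11 under 3 each, Kcnd3 and both called ratios of Kcnh7 under 2 each, and Trpm4 in the WT libraries and Cacna1d in KO over WT in the MI libraries under 1 each. Where the calls of Kcnj8, Kcnd3, Trpm4 and, in KO over WT, Kcnh7 were lost, the ratios stayed beyond 1.5-fold.

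Counts of members moved by more than 1.5 times as follows. For MI over Sham in the KO libraries, thinning gave 5 higher and all nuclei gave 11 lower. For KO over WT in the Sham libraries, the higher count was 1 without centring and 1 when centred within gene length, and the lower count was 2 without centring, 0 when thinned and 0 in nuclei with a low share of other cell types. For KO over WT in the MI libraries, the higher count was 2 in nuclei labelled CM1 by both labels and 0 in nuclei with a low share of other cell types, and the lower count was 1 with a minimum of 20 UMIs, 1 with no minimum and 1 with all nuclei. Depth limits genes of few UMIs, such as Kcnd3, Kcnh7 and Kcnj8. The cause of these shifts was not tested.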
